A study of Homo sapiens with 6 samples.

Results

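The 10 genes described here encode enzymes of glycolysis and lactate formation: PKM, ENO1, GAPDH, LDHA, LDHB, PGK1, TPI1, ALDOA, PGAM1 and GPI. They were chosen by gene name, and every listed edit on an isoform that GENCODE release 44 assigns to 1 of them was taken. This gave 3080 pairs of isoform and edited position out of 837533 in the whole series, on 14 of the 145 annotated isoforms of the 10 genes and at 1865 distinct edited Cs. Edits were listed for 9 of the 10 genes, among 7684 genes with any listed edit, and no edit was listed for TPI1.

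INSCRIBE marks the RNAs near a protein in fixed cells. An antibody binds the protein, a fusion of the cytosine deaminase APOBEC1 with a nanobody binds the antibody, and the deaminase turns nearby Cs of the RNA into Us, which are read out by sequencing. The cells were HEK293T, a line from human embryonic kidney that 1 label field spells HEK293XT, and rRNA-depleted RNA was read as full-length cDNA on a long-read instrument. The RBFOX2-INSCRIBE group (2 libraries) received the antibody against RBFOX2 and the fusion, the enzyme-only group (2 libraries, replicates 2 and 3 in the titles) received the fusion without that antibody, and the buffer-only group (2 libraries) received neither. All 6 libraries came from 1 unmodified cell line. The study's methods describe replicates as wells of the same cells on separate slides, so the p-values measure the spread between these wells, which may be technical.

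Glycolysis splits glucose into pyruvate. GPI and ALDOA (an aldolase) act early in the pathway and TPI1 interconverts the triose phosphates, GAPDH, PGK1, PGAM1 and ENO1 carry the trioses on to phosphoenolpyruvate, PKM (pyruvate kinase) forms pyruvate, and LDHA and LDHB (lactate dehydrogenase subunits) convert pyruvate to lactate and back. These mRNAs are among the most abundant of dividing cells. RBFOX2 is a splicing regulator that also binds 3′ untranslated regions (UTRs) and recognizes UGCAUG, and PKM is a classical case of mutually exclusive exons, of which the PKM2 form predominates in dividing cells.

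Editing was scored as the number of distinct edited Cs of a gene or isoform, and as editsC, that number over all Cs of the exons of the isoform. Among the 6 libraries 71421 to 205830 edited Cs were listed over all genes, fewest in the buffer-only and most in the RBFOX2-INSCRIBE libraries, and enzyme-only replicate 2 stood at 86019 against 153740 in enzyme-only replicate 3. The files hold edit fractions and not read numbers, so the depth was taken as unknown and no interval was given for a fraction. A listed fraction cannot be lower than 1 read over all reads of the isoform, so the lowest fraction listed for a gene falls as its reads increase. It is given below beside the genes that passed a test and beside GAPDH, ALDOA and GPI. The part of read number in a difference was not tested. Several of these genes, GAPDH among them, have processed pseudogenes of closely similar sequence, and reads moved between such copies by the assignment were not analysed here.

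Together the 10 genes carried 658 and 503 edited Cs with RBFOX2-INSCRIBE, 468 and 582 with enzyme alone and 396 and 398 with buffer alone. RBFOX2-INSCRIBE and enzyme-only overlapped, and all 4 lay above buffer-only. As a share of all edited Cs the order was the other way. The 10 genes took 0.545% and 0.557% of them in buffer-only, 0.544% and 0.379% in enzyme-only and 0.328% and 0.244% in RBFOX2-INSCRIBE.

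Most Cs of these genes that were edited were edited in few molecules. The median edit fraction of PKM was between 0.0535% and 0.105% of reads across the 6 libraries and that of PGAM1 between 0.0512% and 0.0685%, whereas the median over all genes was between 0.518% and 0.763%. The median fraction of PKM, ENO1, GAPDH, LDHA, PGK1, ALDOA and GPI lay near the lowest fraction listed for the same gene and library. It stood at that fraction or within a few parts in 100 of it. In RBFOX2-INSCRIBE replicate 1, for example, the 2 values were 0.0535% and 0.0534% for PKM and 0.136% and 0.134% for LDHA. PGAM1 departed further, with 0.0640% and 0.0473% in enzyme-only replicate 2.

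Levels differed widely within the pathway. PGAM1 had the highest editsC, with 26.9% ± 5.60 (SD, n = 2) of its Cs edited in RBFOX2-INSCRIBE, 24.9% ± 2.27 in enzyme-only and 20.3% ± 0.303 in buffer-only. PKM followed with 23.2% ± 0.976, 18.6% ± 7.05 and 16.2% ± 0.542, and ENO1 with 21.4% ± 6.66, 21.4% ± 3.99 and 18.5% ± 0.740. In the RBFOX2-INSCRIBE libraries the spreads of these 3 overlapped. LDHA stood at 17.5% ± 0.800, 10.5% ± 3.68 and 5.43% ± 0.320, the clearest stepwise order of the 3 groups. GAPDH, ALDOA and PGK1 were lower, at 7.51% ± 3.42, 6.07% ± 2.18 and 5.64% ± 1.26 in RBFOX2-INSCRIBE. GPI had 2 to 8 edited Cs per library out of 1156, and LDHB had 2 in RBFOX2-INSCRIBE replicate 1, 1 in enzyme-only replicate 2 and 0 in the other 4 libraries.

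**Figure D1:**
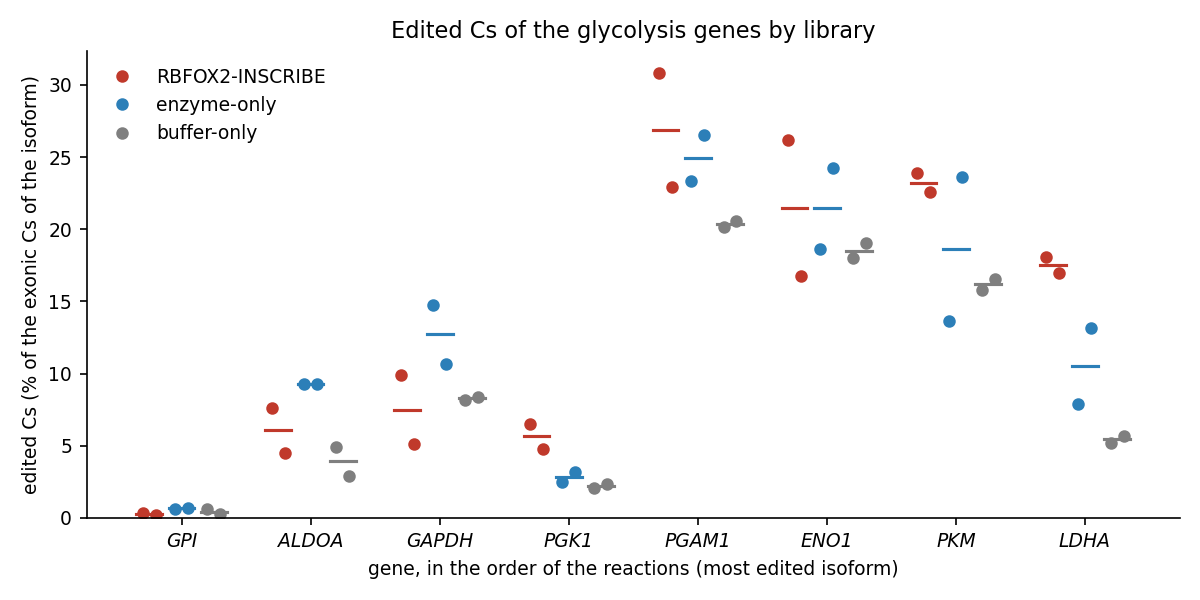
Edited Cs as a percentage of the exonic Cs of the most edited isoform of each gene (vertical axis) for the 8 genes whose libraries averaged 5 edited Cs or more, in the order of the reactions; each point is 1 library and each short line the mean of 2. LDHA and PGK1 have both RBFOX2-INSCRIBE points above both enzyme-only points, while those of GAPDH and ALDOA lie below them.

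Differences between groups were tested with limma on log2((edited Cs + 0.5) / Cs), fitted over all genes that averaged 5 edited Cs or more across the compared libraries, with Benjamini-Hochberg adjustment over all of them. Comparing RBFOX2-INSCRIBE with enzyme-only asks what the antibody adds to the free deaminase. None of the 8 genes tested passed an adjusted p of 0.05, and 0 of 8 had an unadjusted p under 0.05, while over all genes 0.118% were called (6 of 5088; 864 before adjustment). When gene counts of this comparison were simulated with a small part of the genes changed, 0.5% of genes with a 2-fold change and 72% of those with a 4-fold change were called. In the data most genes shifted together, with 85.7% of those tested higher in RBFOX2-INSCRIBE. The same simulation against buffer-only called 11% of genes with a 2-fold change, where 61.1% of all genes were called in the data. The simulated rates thus do not settle whether a 2-fold difference was detectable here with 2 libraries a group.

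LDHA had 80 and 75 edited Cs in the RBFOX2-INSCRIBE libraries against 35 and 58 in enzyme-only. Its log2 difference was 0.77 (SE 0.59, limma adjusted p = 0.433). PGK1 had 66 and 48 against 25 and 32, a log2 difference of 0.98 (SE 0.67, limma adjusted p = 0.391). In both genes each RBFOX2-INSCRIBE library was above each enzyme-only library, as in 51.8% of all genes tested. PKM had 156 and 149 against 89 and 155, and the groups overlapped. Without enzyme-only replicate 3, LDHA (limma adjusted p = 0.0273) and PKM (log2 difference 0.77, limma adjusted p = 0.0488) passed, as did 1690 of all genes in that fit.

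GAPDH, ALDOA and GPI stood the other way round. GAPDH had 39 and 20 edited Cs in RBFOX2-INSCRIBE against 58 and 42 in enzyme-only (log2 difference -0.81, SE 0.61, limma adjusted p = 0.429). ALDOA had 40 and 22 against 55 and 47, and GPI had 4 and 2 against 7 and 8. Both RBFOX2-INSCRIBE libraries were below both enzyme-only libraries in these 3 of the 8 genes tested, an order found in 3.54% of all genes tested, and none of the 3 passed the test. The lowest fraction listed for GAPDH was 0.150% and 0.258% in RBFOX2-INSCRIBE, above the 0.0791% and 0.135% in enzyme-only. For ALDOA it was 0.183% and 0.350% against 0.180% and 0.216%, and for GPI 1.56% and 1.72% against 2.22% and 1.64%, so these groups overlapped. When every library was scaled to the same total of edited Cs, the log2 differences of LDHA, PGAM1 and PKM turned to -0.039, -0.72 and -0.44. Unscaled, the median log2 difference was 0.04 over the 8 genes and 0.85 over all genes, and 7 of the 8 lay below the median of all genes.

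Against buffer-only, which shares the RBFOX2-INSCRIBE libraries with the comparison above and lacks the deaminase, 3 of the 7 genes tested passed the test, all with more edited Cs in RBFOX2-INSCRIBE, where 61.1% of all genes were called. LDHA rose from 23 and 25 edited Cs to 80 and 75, a 3.18-fold difference (log2 1.67, SE 0.18, limma adjusted p = 0.000652). PGK1 rose from 21 and 24 to 66 and 48, a 2.47-fold difference (log2 1.31, SE 0.31, limma adjusted p = 0.00969). PKM rose from 105 and 110 to 156 and 149, a 1.42-fold difference (log2 0.50, SE 0.16, limma adjusted p = 0.0282).

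The lowest fraction listed for LDHA was 0.134% and 0.161% in RBFOX2-INSCRIBE, 0.218% and 0.159% in enzyme-only and 0.152% and 0.174% in buffer-only, so the groups overlapped for that gene. For PGK1 it was 0.257% and 0.300%, 0.403% and 0.274%, and 0.351% and 0.329%, and for PKM 0.0534% and 0.0553%, 0.105% and 0.0630%, and 0.0675% and 0.0668%. In PGK1 and PKM both RBFOX2-INSCRIBE libraries were below both buffer-only libraries, and enzyme-only replicate 2, which had the fewest edited Cs of PKM, had the highest such value of the 6 in all 3 genes.

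PGAM1 had 94 and 96 edited Cs in buffer-only and 144 and 107 in RBFOX2-INSCRIBE, and did not pass the test (log2 difference 0.38, limma adjusted p = 0.0765). PKM, LDHA, PGK1 and PGAM1 thus had both RBFOX2-INSCRIBE libraries above both buffer-only libraries, as in 80.6% of all genes tested. ENO1, ALDOA and GAPDH overlapped between these groups, with log2 differences of 0.19, 0.48 and -0.21. The median log2 difference over all genes was 1.54, and LDHA alone of the 7 lay above it. Beside that median, PKM was lower by 1.04 and PGK1 by 0.23 on the log2 scale. When every library was scaled to the same total of edited Cs, 0 of the 7 genes passed, where 15 of 4804 genes were called over all genes. The log2 differences of PKM and PGK1 turned to -0.99 and -0.17, and that of LDHA was 0.19, while the median of all genes moved to 0.10. With all 3 groups in 1 fit LDHA alone of the 7 passed, where 2075 of 4804 genes were called over all genes. Without either RBFOX2-INSCRIBE library 0 of the 7 and 0 of all genes passed (1746 of all genes before adjustment without replicate 1 and 1719 without replicate 2), and without either buffer-only library PKM did not pass (limma adjusted p = 0.0934 without replicate 1 and 0.0686 without replicate 2).

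Between enzyme-only and buffer-only, 0 of 8 genes passed the test (1, ALDOA, at an unadjusted p under 0.05), with 0.546% of all genes called (23 of 4209; 637 at an unadjusted p under 0.05). ALDOA had 55 and 47 edited Cs against 28 and 16, a log2 difference of 1.24 (SE 0.60, limma adjusted p = 0.298). The groups did not overlap for ALDOA, GAPDH, LDHA, PGAM1 and PGK1, all higher in enzyme-only, as in 44.4% of all genes tested.

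**Figure D2:**
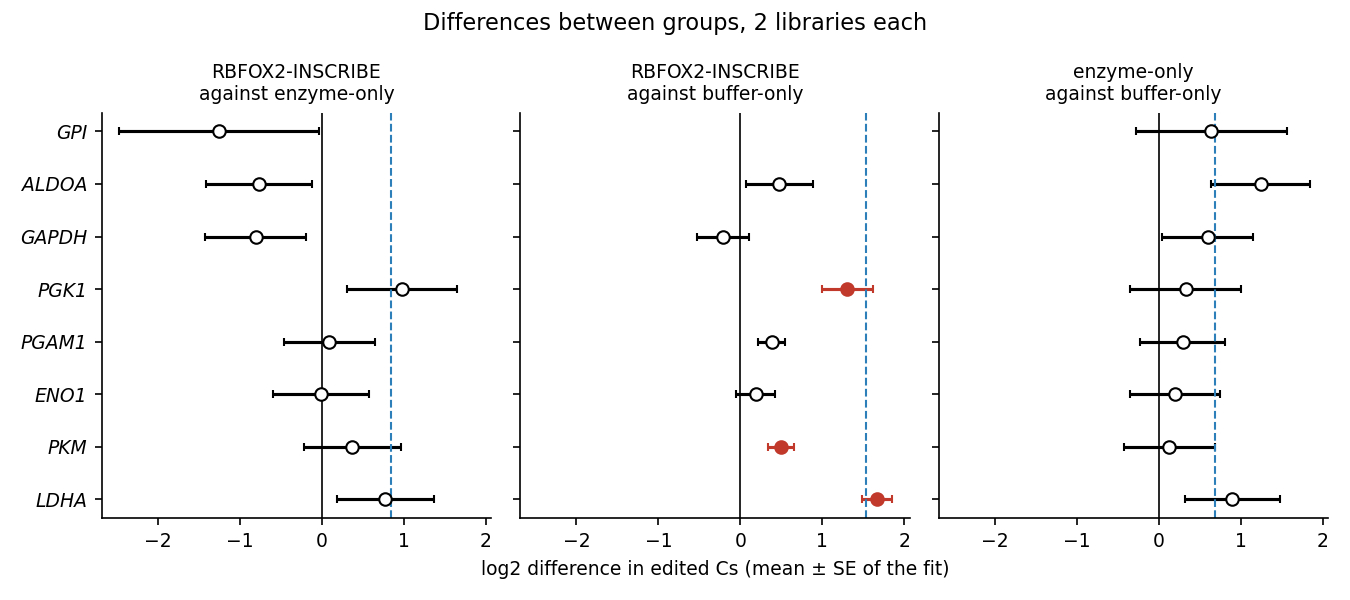
Log2 differences in edited Cs (horizontal axis; points are fitted differences and bars their SE) for the 3 comparisons of 2 libraries each; filled red points passed an adjusted p of 0.05 and the dashed line is the median of all genes tested. In the middle panel LDHA, at 1.67, is the one gene to the right of the dashed line at 1.54; GPI had too few edited Cs to be tested there.

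PKM edits lay on 1 isoform. ENST00000335181 (PKM-202, 11 exons, 2305 nt, 652 Cs, minus strand of chromosome 15 in hg38) held 99.0% of the PKM edits, and the retained-intron isoform ENST00000565143 held the other 1.05% in 0 to 2 edited Cs per library. ENST00000335181 carries the 167-nt exon at chr15:72202454-72202620, the one of the mutually exclusive pair that makes PKM2. That exon had 21 and 8 edited Cs of 56 in RBFOX2-INSCRIBE, 14 and 16 in enzyme-only and 8 and 4 in buffer-only. RBFOX2-INSCRIBE replicate 1 was the highest of the 6 libraries there and replicate 2 was no higher than buffer-only replicate 1. No listed edit fell in the alternative 167-nt exon at chr15:72203022-72203188, which marks PKM1; no isoform with that exon was listed, and its reads are not given here.

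Across the exons of PKM the edited share in RBFOX2-INSCRIBE ran from 11.5% ± 10.9 (SD, n = 2) of 26 Cs in the first exon to 26.8% ± 3.45 of 41 Cs in exon 8, and the last exon, with 237 Cs, stood at 25.1% ± 0.895 against 16.9% ± 7.76 in enzyme-only and 17.3% ± 0 in buffer-only. By region, 23.6% ± 2.23 of the coding Cs and 23.9% ± 0.342 of the 3′ UTR Cs were edited in RBFOX2-INSCRIBE, and 16.0% ± 2.40 and 17.1% ± 1.71 in buffer-only. The exons of PKM hold no UGCAUG. They hold 2 GCAUG and 2 GCACG, a shorter form and a variant of the motif.

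LDHA had the 1 UGCAUG with recurrent edits. Its edits all lay on ENST00000422447 (LDHA-205, 8 exons, 2241 nt, 442 Cs, plus strand of chromosome 11), and its UGCAUG is at chr11:18407343-18407348 in the 3′ UTR. Among the listed isoforms of the 10 genes 3 of 14 hold UGCAUG in their exons, and among all listed isoforms 55.6% do. GPI-201 (ENST00000356487, plus strand of chromosome 19) holds 2, at chr19:34400108-34400113 and chr19:34401783-34401788 in its 3′ UTR. The remaining one is ENST00000464920, a retained-intron isoform of ENO1 on the minus strand of chromosome 1, with UGCAUG at chr1:8870776-8870781 in its first exon, outside the exons of the most edited ENO1 isoform. The motifs are shown with 12 bases on each side, 5′ to 3′ along the RNA in hg38, with the motif in capitals, because these are all the full motifs in the listed isoforms of the 10 genes.
LDHA 3′ UTR: agguggagguugUGCAUGuuguccuuuuua
GPI 3′ UTR, first: cggagccggcacUGCAUGuuccuggacacc
GPI 3′ UTR, second: uggguccgcagaUGCAUGccaguacaccca
ENO1 retained-intron isoform, first exon: uggcguuuccagUGCAUGgucuugcaaacu

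Within 50 nt of the LDHA motif, 7 and 8 of the 15 Cs were edited in RBFOX2-INSCRIBE, 4 and 2 in enzyme-only and 0 and 2 in buffer-only. The RBFOX2-INSCRIBE libraries were above the other 4. As a share of all edited Cs of LDHA these were 8.75% and 10.7%, 11.4% and 3.45%, and 0% and 8%, so the shares overlapped. Of the exonic Cs of LDHA, 3.39% lie in that window, and 4.39% of those up to its last edited C. The fractions there were highest in RBFOX2-INSCRIBE, reaching 1.08% and 0.482% of reads against 0.218% and 0.159% in enzyme-only and 0.174% in buffer-only replicate 2. With 2 libraries against 2, the smallest two-sided p of an exact permutation test is 0.333, so no test was run on these counts. Near the motifs of GPI, 1 C was edited in enzyme-only replicate 3 and none in the other 5 libraries. Near that of the ENO1 retained-intron isoform, 2 of 27 Cs were edited in RBFOX2-INSCRIBE replicate 1 and none in the other 5.

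Over the most edited isoforms of the genes, 1.62% of the Cs lie within 50 nt of UGCAUG (84 of 5192). Of those 84, 43 and 26 are near the 2 motifs of GPI and 15 near that of LDHA. The 1.62% thus rests mostly on GPI, which had 2 to 8 edited Cs per library. The edited Cs there were 1.07% and 1.60% of all edited Cs in RBFOX2-INSCRIBE. In enzyme-only they were 0.873% and 0.518%, and in buffer-only 0% and 0.508%. The shorter GCAUG and GCACG, which lie in PKM, ENO1, GAPDH, LDHA, PGK1, PGAM1 and GPI, together had 12.4% of the Cs within 50 nt and between 11.2% and 14.9% of the edited Cs in each of the 6 libraries.

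**Figure D3:**
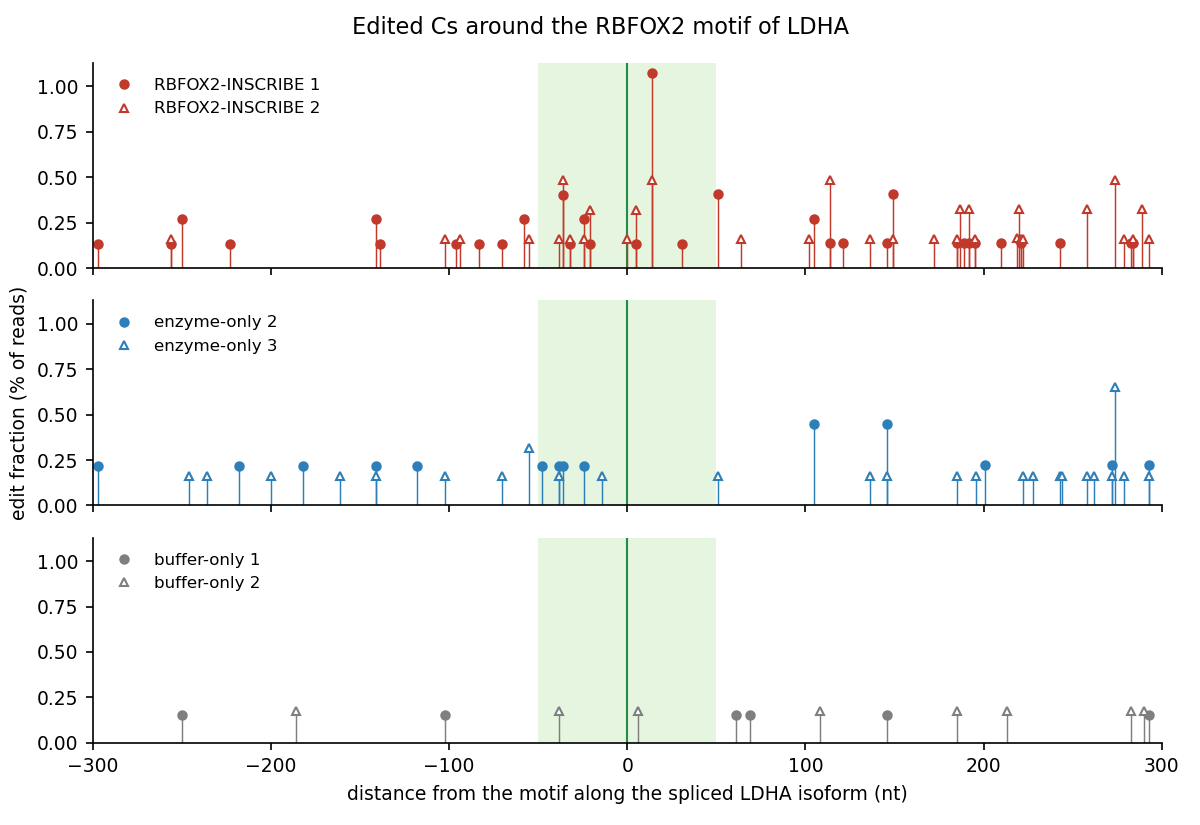
Edit fraction in percent of reads (vertical axis) at each edited C of LDHA up to 300 nt on either side of UGCAUG (distance 0, green line), 1 panel per group and 1 symbol per library; the shaded band is 50 nt on each side. The tallest point is 1.08% in RBFOX2-INSCRIBE replicate 1, 14 nt after the motif, where RBFOX2-INSCRIBE replicate 2 is at 0.482% and no control library has an edit.

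Sites edited in both RBFOX2-INSCRIBE libraries and in none of the other 4 numbered 60 in the 10 genes, or 3.22% of their edited Cs, against 4.33% over all genes. Sites found in both enzyme-only libraries alone numbered 31 (1.66%; 0.761% over all genes) and in both buffer-only libraries alone 21 (0.341% over all genes). LDHA had 20 such RBFOX2-INSCRIBE sites, 10.5% of its 191 edited Cs, beside 3 enzyme-only and 0 buffer-only sites. PKM had 16 (3.49% of 459) beside 6 and 9, PGK1 8 beside 0 and 0, ENO1 8 beside 2 and 8, PGAM1 6 beside 9 and 2, and ALDOA 2 beside 6 and 0. GAPDH had 0 beside 5 and 2.

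Of the 20 LDHA sites, 15 lay in the 3′ UTR and 4 of these within 50 nt of the motif. The strongest was 14 nt after UGCAUG at chr11:18407362. Shown here are the 3 LDHA sites with the highest mean fraction and the strongest site of PGK1, PKM and ENO1, 10 bases on each side, 5′ to 3′ along the mRNA in hg38, with the edited C in capitals. In brackets are the fractions in RBFOX2-INSCRIBE replicates 1 and 2.
LDHA 3′ UTR, chr11:18407362 (1.08% and 0.482%): uccuuuuuauCugaucuguga
LDHA 3′ UTR, chr11:18407741 (0.271% and 0.648%): ugaacuauauCaguaguguac
LDHA 3′ UTR, chr11:18407462 (0.136% and 0.485%): acagcuauauCcugaugcugg
PGK1 3′ UTR, chrX:78126124 (0.258% and 0.602%): gcaguguuagCuuaguucucu
PKM coding, chr15:72208852 (0.160% and 0.0553%): aaugguggcuCcuugggcagc
ENO1 coding, chr1:8870504 (0.108% and 0.0753%): aagggugucuCaaaggcuguu
The 3 LDHA sites share the letters auC at the edited base, and 5 of the 6 printed sites have U before the C. Of all 60 sites of this kind in the 10 genes, 38 (63.3%) followed A or U, against 89.1% over all genes. All the PKM sites of this kind lay between 0.0544% and 0.108% in mean fraction, under the lowest such mean of LDHA, 0.148%, and of PGK1, 0.279%. The lowest fractions listed for these genes in the RBFOX2-INSCRIBE libraries, given above, stood in the same order.

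By region, LDHA was edited at 36 and 49 of 217 Cs of its 3′ UTR in RBFOX2-INSCRIBE, 18 and 26 in enzyme-only and 6 and 11 in buffer-only. In its coding sequence the numbers were 35 and 20 of 186 Cs, 15 and 25, and 12 and 14. The 3′ UTR thus separated all 3 groups and the coding sequence left RBFOX2-INSCRIBE and enzyme-only overlapping. PGK1 had 24 and 20 edited Cs of 707 in its 3′ UTR in RBFOX2-INSCRIBE, 7 and 6 in enzyme-only and 5 and 4 in buffer-only, and 38 and 28 of 268, 17 and 22, and 13 and 17 in its coding sequence. Here both regions put RBFOX2-INSCRIBE above the other groups. The share of all genes with such orders by region was not counted. At the gene level RBFOX2-INSCRIBE lay above enzyme-only in 51.8% of all genes tested and above buffer-only in 80.6%.

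The difference between the 3′ UTR and the coding sequence was tested per gene. No gene of the 7 tested passed against enzyme-only or against buffer-only (0 of 7 at an unadjusted p under 0.05 in each), and 0% of all genes were called in either comparison (0 of 2059 and 0 of 1846; 162 and 449 at an unadjusted p under 0.05). Against buffer-only the log2 gain of the 3′ UTR over the coding sequence was 1.29 (SE 0.59, limma adjusted p = 0.243) in LDHA and 1.06 (SE 0.48, limma adjusted p = 0.240) in PGK1, beside a median of 0.85 over all genes. In the other 5 genes it was between -0.10 and 0.43. Against enzyme-only that gain was 0.50 (SE 0.58, limma adjusted p = 0.829) in LDHA and 0.94 (SE 0.54, limma adjusted p = 0.635) in PGK1. It was between -0.23 and 0.35 in the other 5 genes, beside a median of 0.34 over all genes. Over the 3′ UTRs of the 8 isoforms with the most edits, 9.59% ± 0.912 of the Cs were edited in RBFOX2-INSCRIBE, 7.52% ± 1.51 in enzyme-only and 5.34% ± 0.0629 in buffer-only.

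Edits of LDHA stopped well before the annotated end. The last edited C in any library was 1658 nt from the start of the 2241-nt isoform, which left 583 nt with 100 Cs and no edit, and the distal part of the 3′ UTR, split at its midpoint, had 0 edited of 98 Cs against 85 of 119 in the proximal part. Over the 342 Cs up to that point, editsC of LDHA was 23.4% and 21.9% in RBFOX2-INSCRIBE, 10.2% and 17.0% in enzyme-only and 6.73% and 7.31% in buffer-only. In PGK1 the proximal part of the 3468-nt 3′ UTR had 47 edited of 337 Cs and the distal part 8 of 370. In PKM, ENO1, GAPDH, ALDOA and PGAM1 the last edited C was 9 to 30 nt from the end. GPI, with few edits, had its last edited C at 2006 of 4125 nt, and 543 Cs after it had no edit.

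**Figure D4:**
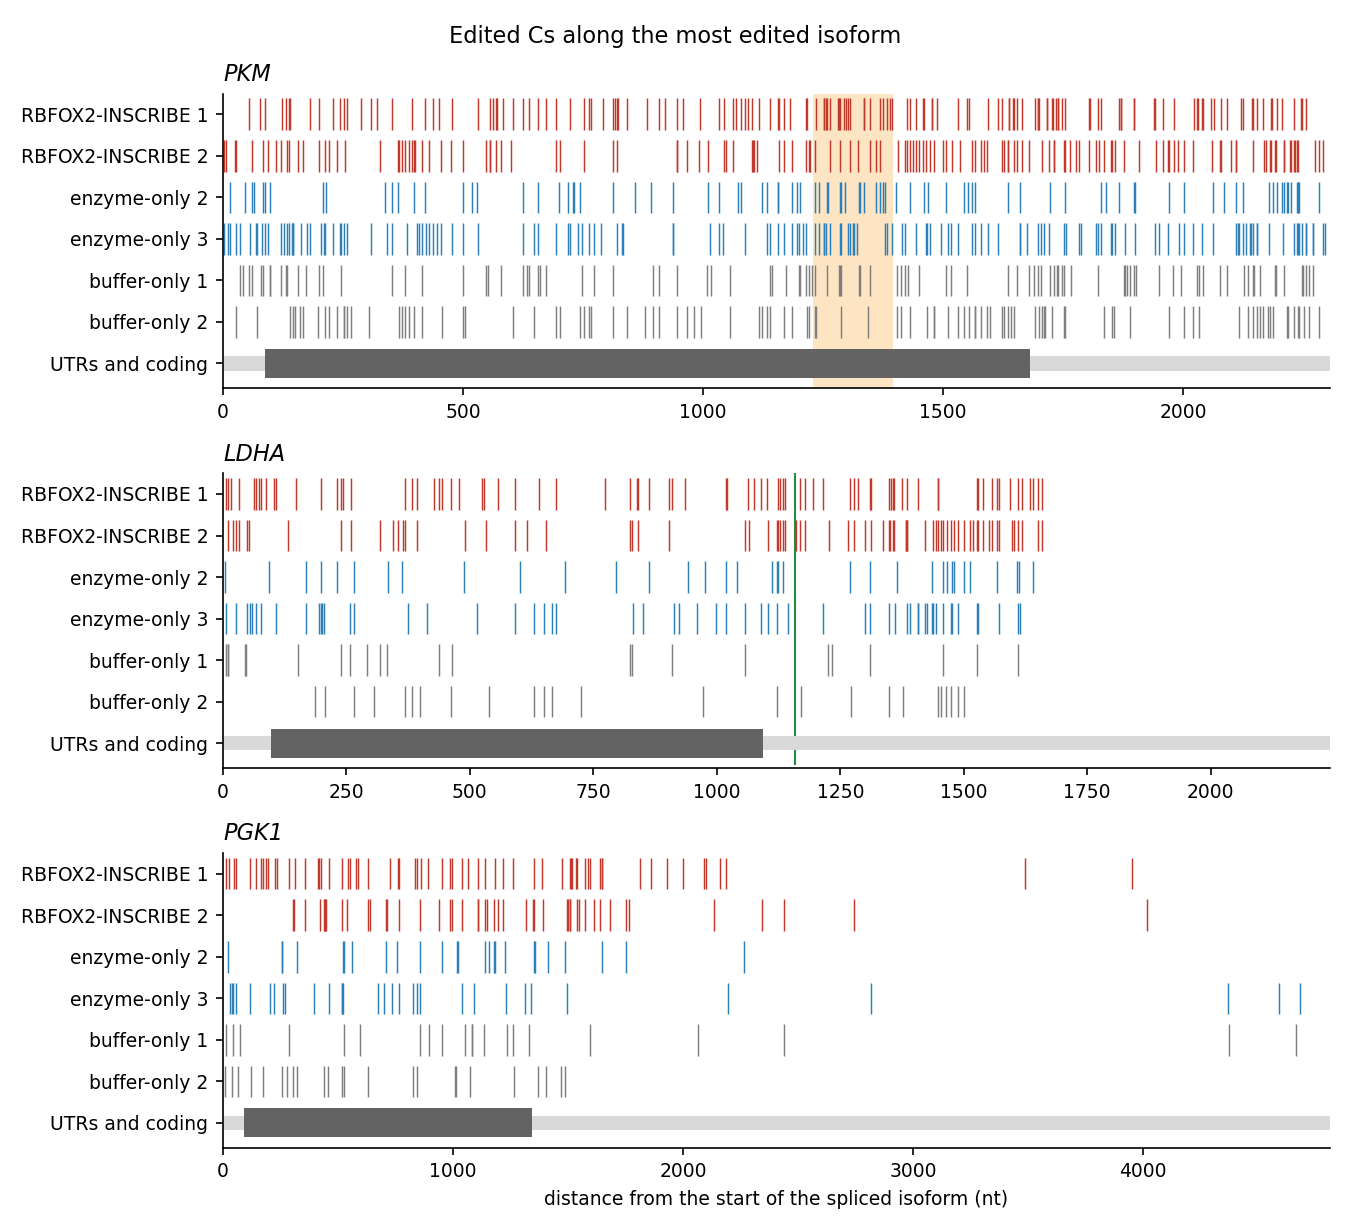
Edited Cs (vertical ticks) of the 6 libraries along the most edited isoform of PKM, LDHA and PGK1, in nt from its start; dark boxes are coding sequence, light boxes UTRs, the orange band is the PKM2 exon and the green line UGCAUG. Edits of PKM run to the end of the isoform, those of LDHA end at 1658 of 2241 nt, and those of PGK1 thin out along its 3′ UTR.

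Along the far 3′ UTR of PGK1 the few edits listed had high fractions. All 15 of its sites with a fraction of at least 0.02 lay between 2002 and 4682 nt of the 4812-nt isoform, and the 147 edited Cs before 2002 nt reached at most 1.21%. None of the 15 was listed in more than 1 library, and those of buffer-only replicate 1 stood at 3.85% to 5.56%. Read numbers at these positions are unknown, and their part in the high fractions was not tested. The 1 site of the 10 genes at a fraction of at least 0.1 was chrX:78127225, at 12.5% in RBFOX2-INSCRIBE replicate 2 and in no other library. In PKM, ENO1, LDHB and ALDOA the sites with a fraction of at least 0.02 were all on isoforms that averaged under 5 edited Cs.

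The base before an edited C was recorded because APOBEC1 is known to prefer Cs after A or U; this measure was added after the data had been seen. Among all genes, 73.5% and 74.7% of the edited Cs in RBFOX2-INSCRIBE followed A or U, 62.0% and 69.1% in enzyme-only and 42.0% and 42.6% in buffer-only, where 48.1% of exonic Cs do. The 10 genes showed the same order with smaller steps, at 48.9% and 52.3%, 44.2% and 46.9%, and 38.9% and 36.4%, where 43.9% of their Cs do.

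LDHA and PGK1 had the highest such shares in RBFOX2-INSCRIBE among the genes with at least 5 edited Cs in each library. In LDHA 76.3% and 72.0% of the edited Cs followed A or U in RBFOX2-INSCRIBE, 60.0% and 58.6% in enzyme-only and 60.9% and 36.0% in buffer-only, beside 52.9% of its Cs. In PGK1 these were 69.7% and 66.7%, 48.0% and 43.8%, and 28.6% and 50%, beside 50.2%. RBFOX2-INSCRIBE was above the other groups in both, as it was over all genes together. How many single genes had that order was not counted. In PKM the share was 35.9% and 35.6%, 34.8% and 42.6%, and 36.2% and 30.9%, beside 38.2% of its Cs, with enzyme-only replicate 3 alone above that value. Of the sites found in both RBFOX2-INSCRIBE libraries alone, 16 of 20 in LDHA and 7 of 8 in PGK1 followed A or U, and 5 of 16 in PKM.

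The gain at Cs after A or U over the gain at Cs after C or G was tested like the regions. Against buffer-only 2 of 7 genes passed, where 67.8% of all genes were called. They were PGK1 (log2 difference 1.71, SE 0.55, limma adjusted p = 0.0348) and LDHA (1.59, SE 0.58, limma adjusted p = 0.0498). PKM had 0.14 (SE 0.46, limma adjusted p = 0.785), and all 7 lay below the median of all genes, 1.89. Both calls were lost in some fits with 1 library left out. Such fits keep 1 library in a group, so the losses do not show that these 2 genes differ from other genes. Against enzyme-only 0 of 7 passed (1, PGK1, at an unadjusted p under 0.05), as did 0% of all genes (0 of 2474; 232 before adjustment).

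**Figure D5:**
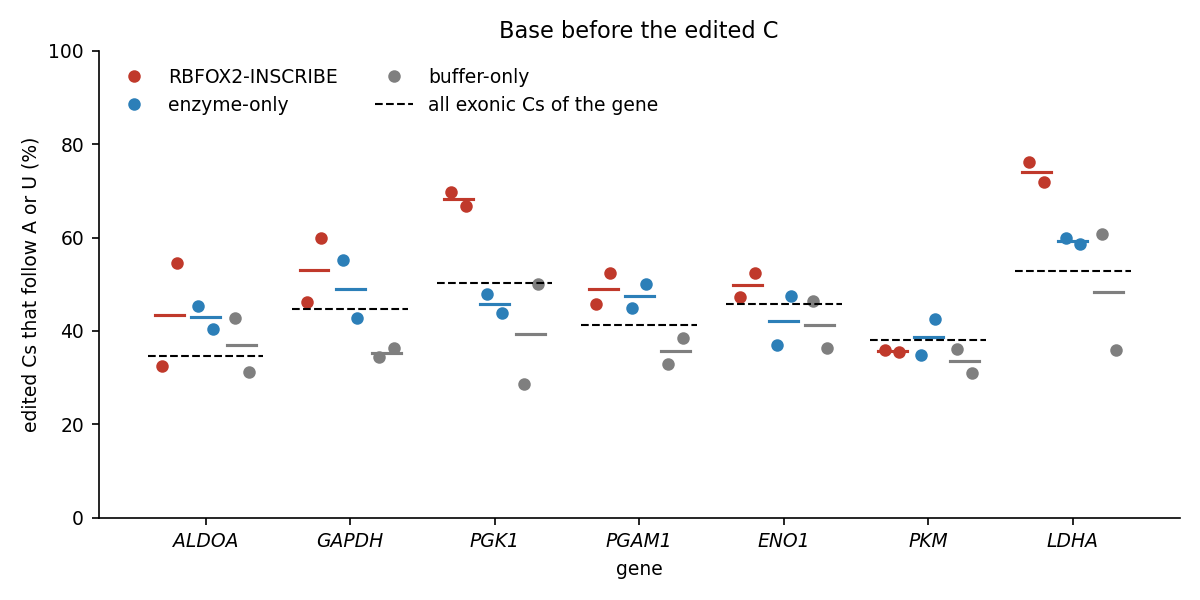
Percentage of edited Cs that follow A or U (vertical axis) by gene; points are libraries, short lines the means of 2, and dashed lines the percentage among all exonic Cs of the gene. LDHA and PGK1 have both RBFOX2-INSCRIBE points above 66% and above all other points, whereas the points of PKM lie below its dashed line except that of enzyme-only replicate 3.

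The number of libraries in which a site recurs bears on how these genes can be read, since edits seen in every sample were removed before the files were made. None of the 1865 edited Cs was listed in all 4 libraries with the deaminase or in all 6 libraries. Over all genes 1 of 602372 edited Cs was listed in all 4 and 0 in all 6, while 1198 were listed in 5 of the 6. The absence was thus not particular to these genes. In 3 of those 4 libraries were 126, or 7.98% of the edited Cs of the 10 genes found in any of the 4, against 5.15% over all genes. The share was 14.2% in PGAM1, 10.6% in ENO1, 8.19% in LDHA and 6.31% in PKM. How many of their sites were removed was not analysed here.

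By isoform, 8 isoforms averaged 5 edited Cs or more over the 6 libraries, 1 each for PKM, ENO1, GAPDH, LDHA, PGK1, ALDOA, PGAM1 and GPI. The other 6 had means from 0.333 to 2.17. ALDOA spread over the most isoforms, with ENST00000643777 (ALDOA-219) holding 88.6% of its edits. No gene of the 10 had 2 isoforms above that mean, so a difference in gain between isoforms could not be tested for any of them; over all genes 0% (0 of 581) were called against enzyme-only (26 at an unadjusted p under 0.05). The same 3 genes passed at the isoform level against buffer-only, where 60.1% of isoforms were called, and 0 of 8 isoforms passed in each of the other comparisons (0 and 1 at an unadjusted p under 0.05), where 0.0525% and 0.834% were called.

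Neighbouring steps of the pathway were read from lists. Of 27 other glycolysis genes (hexokinases, phosphofructokinases, further isozymes, glucose and lactate carriers) 8 had an edited C. Against buffer-only 2 of 7 tested rose and 0 fell, where 61.1% of all genes rose. Against enzyme-only and between the controls 0 of 6 and 0 of 4 passed in either direction, where 0.118% and 0.546% of all genes did. SLC16A1, a carrier of lactate and pyruvate, had the most edits of the list, at 82 and 51 in RBFOX2-INSCRIBE, 12 and 44 in enzyme-only and 15 and 16 in buffer-only (log2 2.03 against buffer-only, SE 0.31, limma adjusted p = 0.00167). Of 11 genes for pyruvate entry into mitochondria 9 had an edited C, and 7 of 8 tested rose against buffer-only and 0 fell, beside the same 61.1% of all genes, and 0 of 8 passed in the other comparisons. DLD, a subunit of pyruvate dehydrogenase, had 145 and 161, 51 and 165, and 57 and 53 edited Cs (log2 1.47 against buffer-only, SE 0.15, limma adjusted p = 0.000566). The median log2 difference against buffer-only was 1.53 in the first list, 1.45 in the second and 0.48 over the 7 genes tested above, beside 1.54 over all genes.

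The genes whose counts followed PKM most closely across the 6 libraries were TRIM28, LRRC59 and P4HB. The root mean square distance of their centred log2 profiles from that of PKM was 0.03, 0.04 and 0.07, among 1990 genes averaging 20 edited Cs or more and a median distance of 0.59. LRRC59 had 154 and 152 edited Cs in RBFOX2-INSCRIBE, 84 and 146 in enzyme-only and 99 and 107 in buffer-only. Within the pathway PGAM1 was nearest to PKM, at rank 104 with a distance of 0.24, and LDHA was at rank 696 with 0.49.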

How the data were processed

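The 6 deposited files, 1 per library, list for each isoform and position the edit fraction, the share of reads of the isoform with the edited base. According to the study's methods the authors made circular consensus reads, split and trimmed them, aligned them to hg38 with pbmm2, assigned them to isoforms with IsoQuant, called C-to-U edits with their own scripts, and removed known variants and edits found across all samples. Read numbers are not given in the files and were not inferred from the fractions, so depth per sample is taken as unknown. A GENCODE release is named for the short reads of the study, and the one used for the long reads is not given in the sources used here; 99.7% to 99.8% of the listed pairs of each library were on isoforms of GENCODE release 44.

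Isoform identifiers were matched to GENCODE release 44, and distinct edited Cs were counted on the strand and in the exons of the isoform; for a gene, over its listed isoforms. limma 3.58.1 in R 4.3.3 (trend and robust empirical Bayes) was run on log2((edited Cs + 0.5) / Cs) for features averaging 5 edited Cs or more across the compared libraries, 2 groups per fit, and a feature was called at an adjusted p under 0.05. The same fit was run on differences between 2 classes of Cs in a gene. The fit was tested on simulated edited Cs with 200 changed features. Tables were made with Python 3.11.15, pandas 2.3.3 and pysam 0.24.0.

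The 10 genes, the gene lists and the comparisons were chosen with earlier results of these data known. Named are all 10 genes, isoforms averaging 5 edited Cs or more, every UGCAUG, the RBFOX2-INSCRIBE sites of highest mean fraction (at most 3 a gene), sites of fraction of at least 0.1, the list genes with the most edited Cs, and the 3 genes most like PKM. Of the RBFOX2-INSCRIBE sites, the 3 of LDHA and the strongest of PGK1, PKM and ENO1 are printed, and those of ALDOA are not. Alternatives were other pseudocounts, minimum counts, scaling, edit fractions, edits on both strands, blocking on the replicate number, and omission of each library in turn.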

Additional observations from a re-analysis of the deposited data

Results flagged for a closer look

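The files also list edits on the strand opposite to the isoform, read as G-to-A on the mRNA, which were left out of the counts above. Among the 10 genes they were listed for GAPDH and, at 2 positions in buffer-only replicate 2, for ALDOA. GAPDH had 23 such positions in enzyme-only replicate 2, above the 10 and 11 of the buffer-only libraries, and 6 in enzyme-only replicate 3 and 7 and 2 in RBFOX2-INSCRIBE. Enzyme-only replicate 2 also had the most C-to-U positions in GAPDH, 58 against 20 to 42 in the other libraries. Its lowest fraction listed for C-to-U edits of GAPDH was 0.0791%, against 0.130% to 0.258% in the other libraries. By the number of G-to-A positions GAPDH ranked 130 of the 1996 genes with any. The source of these calls was not tested.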

How the results depend on the processing

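Of 131 alternative values of counts and descriptions, 107 kept to the main value. The number of the 10 genes' isoforms that passed against buffer-only was 1 when libraries were scaled to the same total and 1 with all 3 groups in the fit, in place of 3, and 0 to 3 when a library was left out. At the gene level it was 0 when scaled, 1 with all 3 groups and 0 to 2 with a library left out. Against enzyme-only, where none passed, leaving out a library gave 0 to 2 of the isoforms and 0 to 2 of the genes, the 2 being LDHA and PKM without enzyme-only replicate 3. Over all genes, the difference between isoforms gave 3 calls at edit fractions of at least 0.02 and 0 to 3 with a library left out. The gain at Cs after A or U against buffer-only gave 0 to 1 of the 10 genes with a library left out. Counts of all genes called against enzyme-only were 6, with 0 to 30 under other settings and 0 to 1690 with a library left out, and against buffer-only 2936, with 15 to 3188 and 0 to 2318. Between enzyme-only and buffer-only they were 23, with 0 to 291 and 0 to 1. Why these counts moved was not tested.

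Scaling removed most of the median shift of all genes (0.85, 1.54 and 0.69 in the 3 comparisons, 0.05, 0.10 and 0.04 after scaling). Under it the log2 differences against enzyme-only turned to -0.039 in LDHA, -0.72 in PGAM1 and -0.44 in PKM. Against buffer-only they turned to -0.99 in ALDOA, -1.30 in ENO1, -1.10 in PGAM1, -0.17 in PGK1 and -0.99 in PKM. Between enzyme-only and buffer-only they turned to -0.47 in ENO1, -0.069 in GAPDH, -0.38 in PGAM1, -0.34 in PGK1 and -0.54 in PKM. With only Cs after A or U, an alternative chosen after seeing the data, ENO1 against enzyme-only was 0.23 and GAPDH against buffer-only 0.34. With a library left out, ENO1, PGAM1 and PKM against enzyme-only ranged from -0.34 to 0.32, from -0.12 to 0.31 and from -0.024 to 0.77. ENO1 and GAPDH against buffer-only ranged from -0.14 to 0.52 and from -0.69 to 0.26, and PKM between enzyme-only and buffer-only from -0.27 to 0.53. The gain of the 3′ UTR of LDHA over its coding sequence against enzyme-only ranged from -0.12 to 1.12. The gain of PKM at Cs after A or U ranged from -0.41 to 0.052 against enzyme-only and from -0.031 to 0.31 against buffer-only.

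At edit fractions of at least 0.02 the 3′ UTR share in RBFOX2-INSCRIBE was 0.156%, and 0 edited Cs were left in the PKM2 exon, 0 among the sites of both RBFOX2-INSCRIBE libraries alone and 0% near UGCAUG. The share near UGCAUG was 0.805% within 25 nt, 2.09% within 100 nt and 11.7% for GCAUG and GCACG.

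For pairing, the replicate field of the labels was used, which gives the enzyme-only libraries titled 2 and 3 the numbers 1 and 2, so that enzyme-only replicate 2 was matched with replicate 1 of the other groups. Deviations of samples with the same replicate number correlated at 0.110 between RBFOX2-INSCRIBE and enzyme-only, 0.0487 between RBFOX2-INSCRIBE and buffer-only and -0.0248 between enzyme-only and buffer-only over 4801 genes, and with 2 pairs the numbers were not taken to pair the samples. With the replicate block, 28, 2880 and 8 of all genes were called in the 3 comparisons, and 0, 3 and 0 of the 10 genes.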
